A study of Mus musculus with 12 samples.

Results

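The genes described here encode ion channels that carry sodium or calcium into the cytoplasm, together with their auxiliary subunits and the calcium sensors of the endoplasmic reticulum. They were chosen by symbol, and comprise the voltage-gated sodium channels (Scn), the sodium leak channel (Nalcn), the pore, alpha2delta and beta subunits of voltage-gated calcium channels (Cacna1, Cacna2d, Cacnb), and the TRP channels of the A, C, M and V subfamilies. The piezo channels, the inositol trisphosphate and ryanodine receptors, and the Orai and Stim proteins complete the set. Of 19938 genes measured, 63 matched, and 61 of these are channel genes. The other 2 matched through their symbols only: Trpc4ap, which encodes a protein that binds a TRP channel, and Trpc5os, a transcript opposite to Trpc5. Some genes of these families were not analysed here.

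Expression was measured in total RNA of ZsGreen-positive tumor cells, sorted from 12 tumor-bearing FVB brains (6 with pEGFR-Hi and 6 with pEGFR-Lo tumors), with 1 Affymetrix Mouse Gene 1.0 ST array per mouse. Both tumor lines descend from subventricular zone progenitors that lacked Ink4a/Arf and were transduced with human EGFRvIII, a constitutively active variant of the epidermal growth factor receptor, and were then passaged through syngeneic mice. The pEGFR-Hi line has high and the pEGFR-Lo line low EGFRvIII activity. Mice of both groups were injected intracranially with 2 µl at 200000 cells per µl. Brains were taken around the median survival of each group, so tumor line and time since injection differ together, and each group represents 1 line, so the p-values below measure spread among mice and not among lines. The age and sex of the mice were not given in the sources used here. Fewer cells of one type and less RNA per cell cannot be told apart in sorted bulk RNA of this kind.

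Voltage-gated sodium channels open on depolarization and carry the rising phase of the action potential, and voltage-gated calcium channels turn depolarization into calcium entry. In cells with little electrical activity, calcium enters mainly through TRP channels, mechanically gated piezo channels and store-operated channels, in which the Stim sensors detect an emptied endoplasmic reticulum and open Orai pores in the plasma membrane. Glial progenitors and glioma cells are known to express members of these families.

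The values below are log2 expression values made by the authors with RMA, so a difference of 1 is 2-fold. A gene was called higher or lower where limma gave a Benjamini-Hochberg adjusted p under 0.01 over all 19938 genes and the groups differed at least 2-fold. Background was set at 4.10, the level below which 95% of 1027 olfactory receptor genes lay, since such genes stand in for transcripts these cells do not use. Where the lower group did not exceed this level, a fold is given against background as a bound ("at least"), and it holds for group means. Values of different genes come from different probes, so no gene was ranked against another by its level.

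Most of the channel genes that differed were higher in pEGFR-Lo tumor cells. Of the 63 genes, 1 was called higher in pEGFR-Hi and 12 were called in favour of pEGFR-Lo, against 3.99% of all genes called in the first direction and 5.06% in the second. As shares of the channel set these counts are 1.59% and 19%. The gene higher in pEGFR-Hi was Trpc1, a subunit of receptor-operated cation channels. Those higher in pEGFR-Lo were the touch channel gene Piezo2, the calcium channel pores Cacna1a, Cacna1d, Cacna1g and Cacna1h, the auxiliary subunits Cacna2d1, Cacna2d3 and Cacnb4, the sodium channel genes Scn3a and Scn3b, and the store-operated pores Orai1 and Orai2. The median log2 difference (pEGFR-Hi minus pEGFR-Lo) was -0.12 over the 63 genes and 0.01 over all genes. In 22 of the 63 genes (34.9%) the 6 mice of one group did not overlap with the 6 of the other, compared to 23.3% of all genes, and all 13 called genes were among them. Another 7 of the 63 members passed the adjusted p but not 2-fold, 3 of them with pEGFR-Hi above and 4 with pEGFR-Lo above. Of all 19938 genes, 3703 (18.6%) did so, 2138 with pEGFR-Hi above and 1565 with pEGFR-Lo above.

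**Figure D1:**
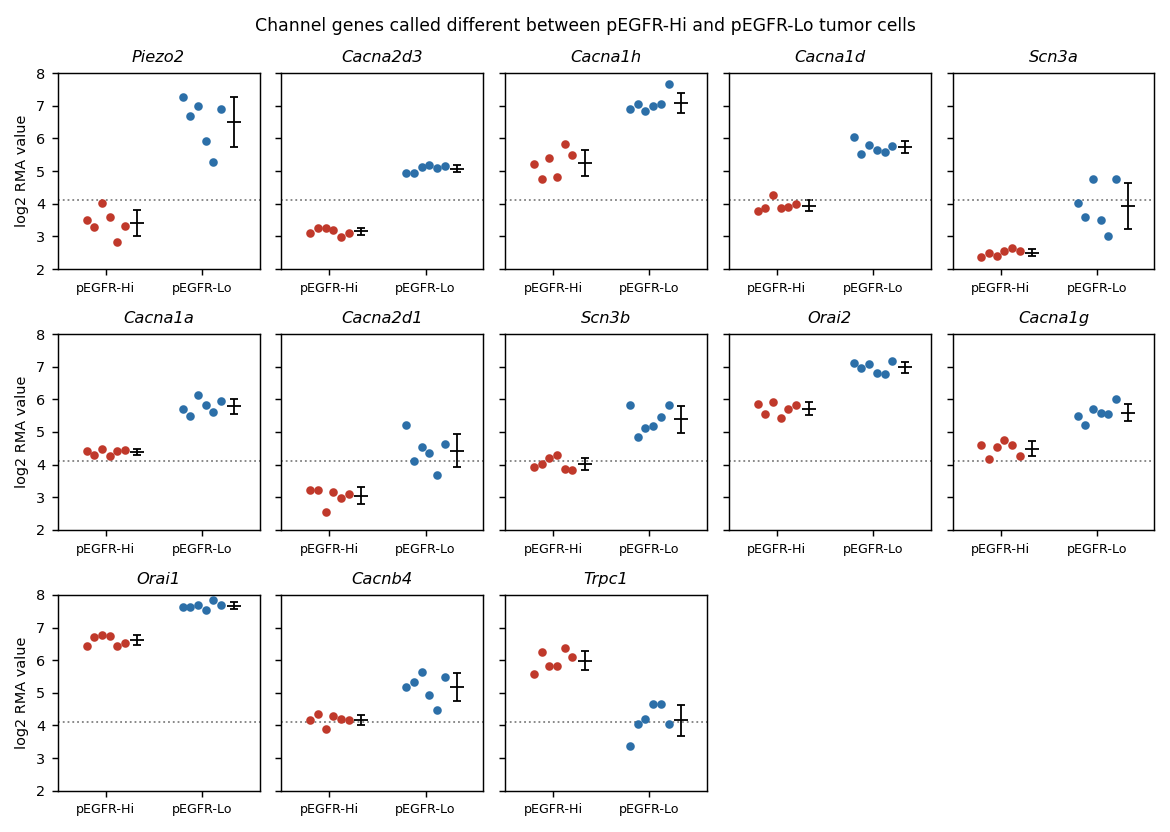
Log2 RMA value (y axis) of the 13 called channel genes in the 6 pEGFR-Hi mice (red) and 6 pEGFR-Lo mice (blue), 1 panel per gene. Points are mice, black bars show the mean and SD of a group, and the dotted line is the background level of 4.10. The groups do not overlap in any panel, and Trpc1 is the panel in which pEGFR-Hi lies above pEGFR-Lo.

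Many channel genes did not exceed background in these cells. In 28 of the 63 neither group mean exceeded background, 24 were above background in both groups, 1 in pEGFR-Hi alone and 10 in pEGFR-Lo alone. At least 1 group mean exceeded background in 55.6% of the 63 genes and in 69.1% of all genes. Over all genes, 1.41% were above background in pEGFR-Hi alone and 2.25% in pEGFR-Lo alone, and in the channel set these shares were 1.59% and 15.9%. The members at or below background included 13 of 20 TRP channel genes and 8 of 11 sodium channel genes. Apart from Scn3a, which is described below, the 27 other genes in this class had group means between 2.10 and 3.94 and differences between -0.28 and 0.16.

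**Figure D2:**
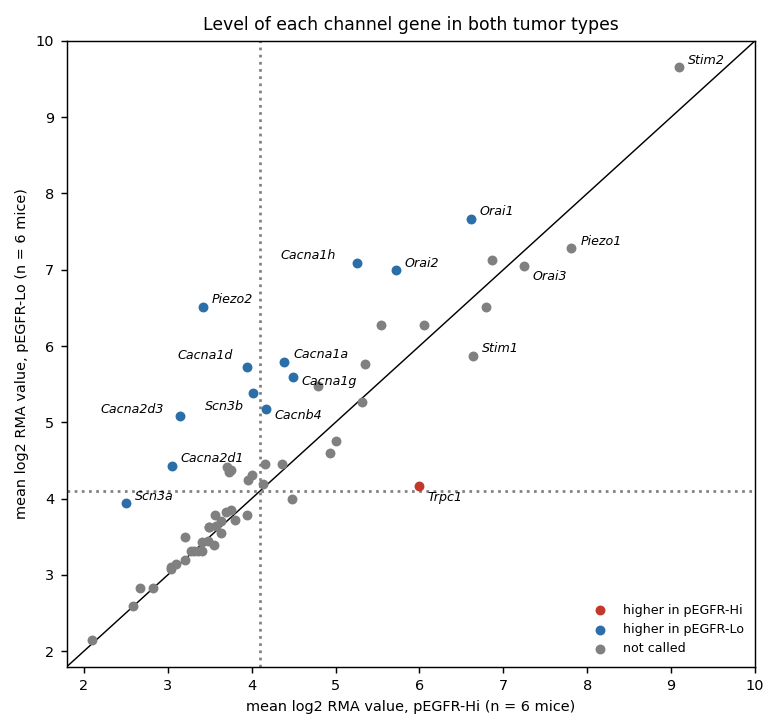
Mean log2 RMA value of each of the 61 channel genes in pEGFR-Hi (x axis) and pEGFR-Lo (y axis), with 6 mice in each group. Dotted lines mark the background level of 4.10 and the diagonal marks equal means. Called genes and 4 others are named, and the 12 called toward pEGFR-Lo lie above the diagonal.

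To show the sequence context of called genes, the 250 bases before the transcription start were taken from the RefSeq annotation of mouse build GRCm38.p6. Windows were matched for 7 of the 13 called genes, and the 5 with a single start are printed here, 5′ to 3′ on the strand of the gene. Capitals mark GC boxes (GGGCGG) or the E-box form CAGCTG, each searched on both strands, and neighbouring matches may share bases. Other E-box forms, such as the CACGTG in the Orai2 window, were not searched or marked.
Trpc1, chr9:95750349-95750598, minus strand: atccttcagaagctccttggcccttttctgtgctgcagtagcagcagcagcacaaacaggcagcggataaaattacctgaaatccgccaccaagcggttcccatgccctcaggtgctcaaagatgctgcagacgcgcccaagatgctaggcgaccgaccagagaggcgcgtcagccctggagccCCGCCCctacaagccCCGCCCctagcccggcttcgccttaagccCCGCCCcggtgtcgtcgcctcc
Orai1, chr5:123014824-123015073, plus strand: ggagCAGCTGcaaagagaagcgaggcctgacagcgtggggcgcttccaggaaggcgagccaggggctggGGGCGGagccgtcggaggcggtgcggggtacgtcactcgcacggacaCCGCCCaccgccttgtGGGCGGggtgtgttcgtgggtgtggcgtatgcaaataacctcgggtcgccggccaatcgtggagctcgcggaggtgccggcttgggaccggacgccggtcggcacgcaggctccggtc
Orai2, chr5:136170657-136170906, minus strand: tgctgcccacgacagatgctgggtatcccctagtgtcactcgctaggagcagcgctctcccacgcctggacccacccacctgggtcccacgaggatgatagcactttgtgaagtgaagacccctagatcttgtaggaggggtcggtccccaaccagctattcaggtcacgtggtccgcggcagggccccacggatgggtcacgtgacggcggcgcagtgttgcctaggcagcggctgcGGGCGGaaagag
Cacna2d1, chr5:15934441-15934690, plus strand: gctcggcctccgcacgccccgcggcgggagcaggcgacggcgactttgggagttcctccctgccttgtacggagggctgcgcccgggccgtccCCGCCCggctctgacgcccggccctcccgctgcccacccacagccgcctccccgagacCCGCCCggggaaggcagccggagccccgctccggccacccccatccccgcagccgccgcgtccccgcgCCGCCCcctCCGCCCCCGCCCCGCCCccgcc
Cacna2d3, chr14:29721865-29722114, minus strand: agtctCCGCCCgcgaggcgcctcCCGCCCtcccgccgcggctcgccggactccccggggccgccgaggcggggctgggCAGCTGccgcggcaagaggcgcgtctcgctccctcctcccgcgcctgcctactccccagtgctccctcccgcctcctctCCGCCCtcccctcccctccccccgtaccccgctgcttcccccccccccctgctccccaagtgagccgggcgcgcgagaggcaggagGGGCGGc
Of all 10 windows matched to called genes, which include 2 of Cacna1d and 3 of Cacnb4, 7 held a GC box, 4 held CAGCTG and 1, of Cacna1d, the TATA box letters TATAAA. Of the 32851 windows in the annotation, 32.7% held a GC box, 13% held CAGCTG and 12.4% a TATA box. In the printed windows GC boxes numbered 3 in Trpc1, 3 in Orai1, 1 in Orai2, 6 in Cacna2d1 and 4 in Cacna2d3, and CAGCTG was found once each in Orai1 and Cacna2d3. The GC content of the Trpc1 window was 62.8%, compared to 70.8% for Orai1, 63.6% for Orai2, 82.4% for Cacna2d1 and 80% for Cacna2d3, and a median of 52.4% over all windows. The 5 windows not printed had a GC content of 39.6% to 86.4%. These matches describe letters and are not evidence of binding.

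Piezo2 had the largest difference among the channel genes. Piezo2 encodes the mechanically gated channel of touch and proprioception in sensory neurons. Its lowest, median and highest log2 values were 2.82, 3.40 and 4.02 in pEGFR-Hi and 5.27, 6.79 and 7.28 in pEGFR-Lo. Every pEGFR-Hi mouse lay below background and every pEGFR-Lo mouse above it. By group means, Piezo2 in pEGFR-Lo was at least 5.29-fold higher (difference -3.09, 95% interval -3.70 to -2.47; limma adjusted p = 3.56e-07). The 3 probe sets of Piezo2 gave differences between -3.09 and -1.25, and the mean over them gave -2.34. Piezo1, the more widely expressed channel of the same family, was at 7.81 ± 0.45 in pEGFR-Hi and 7.28 ± 0.39 in pEGFR-Lo (SD, n = 6 mice each), and did not pass the test (difference 0.53, interval 0.09 to 0.97, limma adjusted p = 0.0572). Its 3 probe sets gave differences of 0.53 to 0.74.

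Of the 10 pores of voltage-gated calcium channels, 4 were called, all higher in pEGFR-Lo, against 5.06% of all genes called in that direction. Cacna1h, a T-type pore that opens at low voltage, spanned 4.76 to 5.82 in pEGFR-Hi (median 5.30) and 6.84 to 7.67 in pEGFR-Lo (median 7.02). It was 3.58-fold higher in pEGFR-Lo (difference -1.84, SE 0.18, limma adjusted p = 4.64e-07) and was above background in all 12 mice. The T-type pore Cacna1g was at 4.49 ± 0.23 in pEGFR-Hi and 5.59 ± 0.26 in pEGFR-Lo (SD over 6 mice per group), and differed 2.14-fold (limma adjusted p = 4.06e-06). Cacna1g lost its call when pEGFR-Lo replicates 3 and 6 were both left out, at a difference of -0.97 in place of -1.10. That pair of mice was left out together after the data were seen.

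Among the other pores, Cacna1d, an L-type pore with a role in pacemaking, was at 3.78 to 4.26 in pEGFR-Hi (median 3.88) and at 5.54 to 6.04 in pEGFR-Lo (median 5.72). In pEGFR-Hi 1 mouse exceeded background and in pEGFR-Lo all 6 did. Cacna1d in pEGFR-Lo was at least 3.10-fold higher (difference -1.79, SE 0.10, limma adjusted p = 1.09e-09). Cacna1a, the P/Q-type pore of presynaptic terminals, was 2.63-fold higher in pEGFR-Lo, with a range of 4.26 to 4.49 in pEGFR-Hi and of 5.49 to 6.13 in pEGFR-Lo (limma adjusted p = 2.29e-08). The L-type pore Cacna1c, widespread in heart and brain, was at 5.35 ± 0.29 in pEGFR-Hi and 5.76 ± 0.29 in pEGFR-Lo, a difference of -0.41 that did not pass (limma adjusted p = 0.0426). Cacna1b and Cacna1e, the N- and R-type pores of nerve terminals, were near background, at 4.01 and 4.16 in pEGFR-Hi and 4.31 and 4.46 in pEGFR-Lo. Cacna1f, Cacna1i and Cacna1s did not exceed background in either group.

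Auxiliary subunits carry calcium channel pores to the membrane and set their gating. Of the 7 measured, 3 were called higher in pEGFR-Lo, against 5.06% of all genes called in that direction. The alpha2delta subunit Cacna2d3 was below background in every pEGFR-Hi mouse (2.99 to 3.27, median 3.15) and above it in every pEGFR-Lo mouse (4.94 to 5.19, median 5.12). In pEGFR-Lo it was at least 1.96-fold higher, and it had the smallest adjusted p of the set, 3.45e-11 from limma. Cacna2d1, the subunit to which gabapentin binds, was at 2.55 to 3.23 in pEGFR-Hi and 3.69 to 5.20 in pEGFR-Lo, where 5 of 6 mice exceeded background. The bound for Cacna2d1 was at least 1.25-fold (difference -1.38, limma adjusted p = 3.60e-05), and its second probe set gave a difference of -1.95. Cacna2d2 and Cacna2d4 were near background, with differences of -0.05 and -0.29. The beta subunit Cacnb4, best known from cerebellar and cortical neurons, stood at the 2-fold limit, with 4.17 ± 0.16 in pEGFR-Hi and 5.18 ± 0.43 in pEGFR-Lo (limma adjusted p = 1.12e-04). Its difference fell short of that limit in 9 of 22 alternative settings. These were another quantile normalization (-0.96), centring on array medians (-0.98), array weights (-0.99), and leaving out pEGFR-Hi replicate 3 (-0.94), pEGFR-Lo replicate 1, 2, 3 or 6 (-0.91 without replicate 3, the smallest), or pEGFR-Lo replicates 3 and 6 together (-0.81). Cacnb1 differed by -0.73 (5.54 ± 0.18 in pEGFR-Hi, 6.27 ± 0.22 in pEGFR-Lo, limma adjusted p = 7.11e-05), less than 2-fold, and Cacnb2 by 0.05 (interval -0.24 to 0.34).

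**Figure D3:**
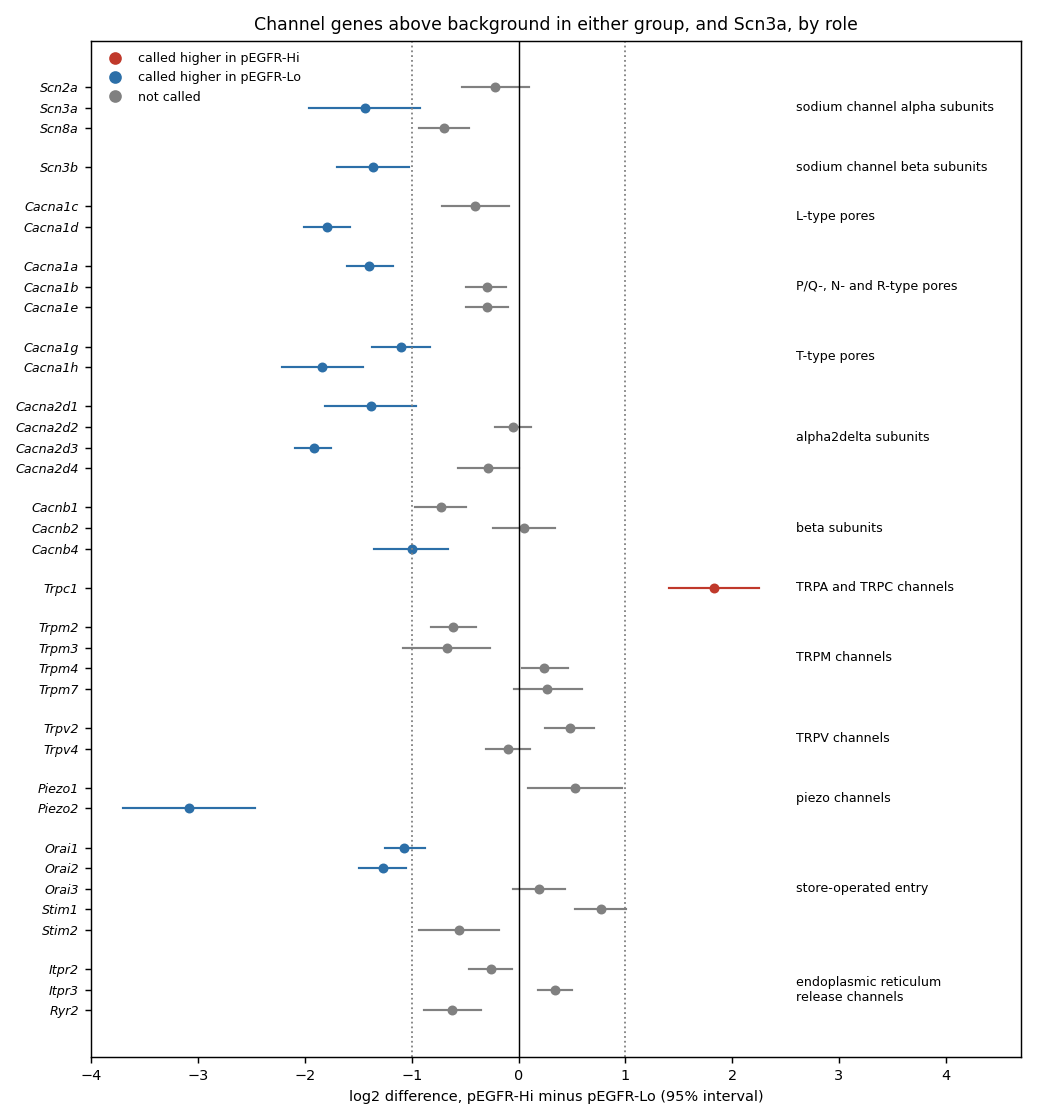
Log2 difference, pEGFR-Hi minus pEGFR-Lo (x axis), with its 95% interval from limma, for the 34 channel genes above background in either group and Scn3a, grouped by role (y axis). Red and blue mark genes called higher in pEGFR-Hi and pEGFR-Lo, grey marks genes not called, and dotted lines mark 2-fold. Piezo2 lies farthest to the left at -3.09 and Trpc1 farthest to the right at 1.83.

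Of the sodium channel genes analysed here, 2 of 11 were called, both higher in pEGFR-Lo, against 5.06% of all genes called in that direction. Scn3b encodes a beta subunit that accompanies the pore at the membrane. It was at 3.84 to 4.28 in pEGFR-Hi (median 3.97) and 4.85 to 5.84 in pEGFR-Lo (median 5.32). Of the pEGFR-Hi mice 2 exceeded background, as did all 6 pEGFR-Lo mice, and Scn3b in pEGFR-Lo was at least 2.43-fold higher (difference -1.36, limma adjusted p = 3.52e-06). The pore Scn3a, prominent in embryonic rodent brain, was at 2.38 to 2.63 in pEGFR-Hi and 3.02 to 4.77 in pEGFR-Lo. Its difference of -1.44 passed (limma adjusted p = 1.82e-04), but neither group mean exceeded background, so no fold is given. Scn3a exceeded background in 2 pEGFR-Lo mice, replicates 3 and 6, at 4.75 and 4.77. Scn8a, a pore of mature axons, had 3.71 ± 0.24 in pEGFR-Hi and 4.41 ± 0.14 in pEGFR-Lo, a difference of -0.70 that was below 2-fold (limma adjusted p = 9.21e-05).

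The pore Scn2a was above background in all 12 mice, at 6.06 ± 0.36 in pEGFR-Hi and 6.27 ± 0.20 in pEGFR-Lo, a difference that did not pass the test (difference -0.22, interval -0.53 to 0.10, limma adjusted p = 0.304). The array holds 14 probe sets for Scn2a, of which 8 exceeded background in either group, and their differences ranged from -0.92 to 0.21. The value of Scn2a therefore depends on the probe set chosen, here the brightest. Neighbouring sodium channel pores are similar in sequence, and probe sets that list several of them were not used. Nalcn, the pore of the sodium leak channel, did not exceed background in either group (difference -0.06).

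Trpc1 was the exception among the called genes. In pEGFR-Hi its lowest, median and highest values were 5.59, 5.96 and 6.36, and in pEGFR-Lo they were 3.36, 4.13 and 4.66. All 6 pEGFR-Hi mice and 3 pEGFR-Lo mice exceeded background, and Trpc1 was 3.55-fold higher in pEGFR-Hi (difference 1.83, interval 1.41 to 2.25; limma adjusted p = 1.58e-06). No other TRPC gene analysed here exceeded background in either group, nor did Trpa1, the receptor of pungent irritants.

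Of the 14 TRPM and TRPV genes, 0 were called in either direction with limma, and 0 with SAM, the permutation method the study used. At a limma p below 0.05 before adjustment, 2 of them lay toward pEGFR-Hi and 2 toward pEGFR-Lo. Of all 19938 genes, limma called 1804 (9.05%), and another 6727 had such a p without a call. Trpm7, a channel fused to a kinase and a route of magnesium entry, was at 6.79 ± 0.25 in pEGFR-Hi and 6.51 ± 0.33 in pEGFR-Lo (difference 0.27, interval -0.04 to 0.59). Trpm4, a calcium-activated channel that carries monovalent cations, was at a median of 4.98 in pEGFR-Hi and 4.84 in pEGFR-Lo (difference 0.24). Trpm2, which opens on oxidative stress, had an adjusted p of 1.12e-04 from limma at a difference of -0.61, below 2-fold, and did not exceed background in pEGFR-Hi. Trpm3 differed by -0.67 (limma adjusted p = 0.0104) and Trpv2 by 0.48 (limma adjusted p = 0.00228), with Trpv2 above background in 6 pEGFR-Hi mice and 1 pEGFR-Lo mouse. The osmosensitive channel Trpv4 was at 4.36 ± 0.20 in pEGFR-Hi and 4.46 ± 0.13 in pEGFR-Lo. Of Trpm1, Trpm5, Trpm6, Trpm8, Trpv1, Trpv3, Trpv5 and Trpv6, none exceeded background in either group. Trpc4ap was at 8.32 ± 0.094 in pEGFR-Hi and 8.58 ± 0.15 in pEGFR-Lo (limma adjusted p = 0.0225).

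The 5 genes of store-operated calcium entry were above background in all 12 mice. The pores Orai1 and Orai2 were called higher in pEGFR-Lo. Orai1 was at 6.44 to 6.78 in pEGFR-Hi (median 6.62) and 7.53 to 7.85 in pEGFR-Lo (median 7.67), a 2.09-fold difference (difference -1.07, SE 0.086, limma adjusted p = 6.07e-08). Orai2 was at 5.44 to 5.92 in pEGFR-Hi (median 5.76) and 6.77 to 7.18 in pEGFR-Lo (median 7.03), a 2.41-fold difference (limma adjusted p = 7.24e-08), and its second probe set gave -1.12 beside -1.27. Both sets of values were narrow, with SDs of at most 0.19 in either group.

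The calcium sensor Stim1 passed the adjusted p with pEGFR-Hi above and did not reach 2-fold, at 6.37 to 6.95 in pEGFR-Hi and 5.53 to 6.15 in pEGFR-Lo (difference 0.77, interval 0.53 to 1.01; limma adjusted p = 4.32e-05). Its groups did not overlap. The second sensor, Stim2, was at 9.09 ± 0.14 in pEGFR-Hi and 9.65 ± 0.48 in pEGFR-Lo (difference -0.56, limma adjusted p = 0.0202), and pEGFR-Lo replicate 5, at 8.87, lay below all pEGFR-Hi mice. Orai3, the pore of this family found only in mammals, was at 7.24 ± 0.11 in pEGFR-Hi and 7.05 ± 0.27 in pEGFR-Lo, a difference that did not pass (difference 0.19, interval -0.05 to 0.43).

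**Figure D4:**
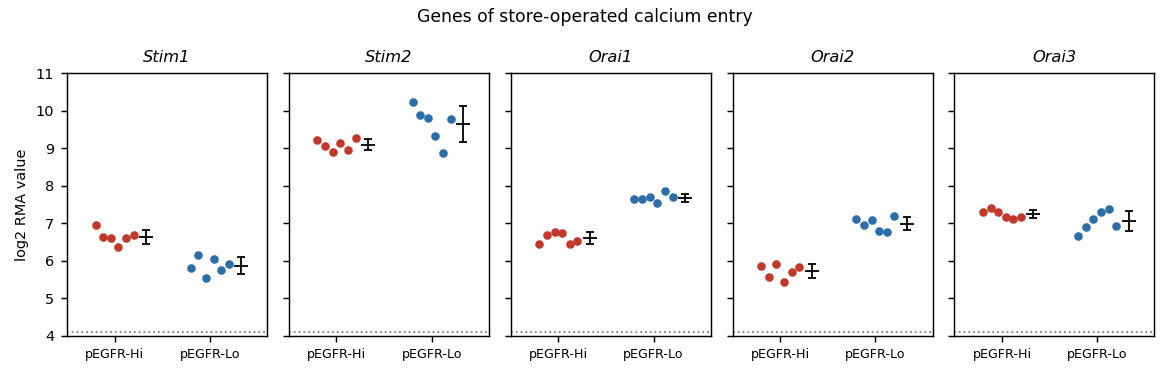
Log2 RMA value (y axis) of the 5 genes of store-operated calcium entry in 6 pEGFR-Hi mice (red) and 6 pEGFR-Lo mice (blue), with the mean and SD of each group in black and the background level of 4.10 as a dotted line. Orai1 and Orai2 separate with pEGFR-Lo above, Stim1 with pEGFR-Hi above, and the groups overlap for Stim2 and Orai3.

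Of the 5 calcium release channels of the endoplasmic reticulum analysed here, 0 were called in either direction with limma, and 0 with SAM. At a limma p below 0.05 before adjustment, 1 lay toward pEGFR-Hi and 2 toward pEGFR-Lo. Of all 19938 genes, 1804 were called and another 6727 had such a p. Itpr2, an inositol trisphosphate receptor common in glia, was at 6.87 ± 0.18 in pEGFR-Hi and 7.13 ± 0.13 in pEGFR-Lo (difference -0.26, limma adjusted p = 0.0384). Itpr3 was at 4.94 ± 0.098 in pEGFR-Hi and 4.60 ± 0.096 in pEGFR-Lo, a difference of 0.34 that was small beside the 2-fold limit (limma adjusted p = 0.00199). The ryanodine receptor Ryr2, of heart and brain, did not exceed background in any pEGFR-Hi mouse and did so in 4 pEGFR-Lo mice (3.73 ± 0.13 in pEGFR-Hi, 4.35 ± 0.32 in pEGFR-Lo, limma adjusted p = 0.00106). Ryr1 and Ryr3 did not exceed background in either group.

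The pEGFR-Lo mice varied among themselves in some called genes more than in others. SDs of the 12 genes called toward pEGFR-Lo ran from 0.097 to 0.41 in pEGFR-Hi and from 0.10 to 0.76 in pEGFR-Lo, with the larger SD in pEGFR-Lo in 8 of them. The mean over these 12 genes was 4.17 to 4.31 in the pEGFR-Hi mice and 5.45 to 6.09 in the pEGFR-Lo mice. These genes were chosen by their call on the same arrays, so the gap between groups follows from that choice. The means describe only the spread within each group. Within pEGFR-Lo, replicate 5 was the lowest mouse for Piezo2, Scn3a, Cacna2d1, Cacnb4 and Orai2, and replicate 2 was the lowest for Cacna1a, Cacna1d, Cacna1g, Cacna2d3 and Scn3b. Replicate 1 was the highest for Piezo2, Cacna2d1, Cacna1d and Scn3b, and replicate 6 for Cacna1h, Cacna1g, Scn3a and Orai2. Without pEGFR-Lo replicates 3 and 6, 1 channel gene was called in favour of pEGFR-Hi and 10 in favour of pEGFR-Lo, with Cacna1g and Cacnb4 no longer called.

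Proteins that move or buffer calcium, or hold the channels in place, were compared with lists written from textbook knowledge. Of 21 measured calcium pumps, exchangers and mitochondrial uniporter genes, limma and SAM each called 0 toward pEGFR-Hi and 3 (14.3%) toward pEGFR-Lo. Over all genes, limma called 3.99% and 5.06% in these directions. At a limma p below 0.05 before adjustment, 1 of the 21 lay toward pEGFR-Hi and 10 toward pEGFR-Lo. Of all 19938 genes, 1804 were called and another 6727 had such a p. The median difference was -0.21 (0.01 over all genes). Slc24a3, a potassium-dependent exchanger of sodium for calcium, was at 3.85 ± 0.17 in pEGFR-Hi and 6.89 ± 0.29 in pEGFR-Lo, or at least 6.90-fold more in pEGFR-Lo (limma adjusted p = 3.89e-11). The plasma membrane calcium pump Atp2b1 was 2.54-fold higher in pEGFR-Lo. Smdt1, a small subunit of the mitochondrial calcium uniporter, was 2.05-fold higher there, and its call was lost when the arrays were quantile normalized again (-0.98).

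Of 36 measured channel partners and scaffolds, limma and SAM each called 0 toward pEGFR-Hi and 6 (16.7%) toward pEGFR-Lo. Over all genes, limma called 3.99% and 5.06% in these directions. At a limma p below 0.05 before adjustment, 5 of the 36 lay toward pEGFR-Hi and 16 toward pEGFR-Lo. Of all 19938 genes, 1804 were called and another 6727 had such a p. The median difference of the 36 partners and scaffolds was -0.17. Unc79 and Unc80, subunits of the complex that Nalcn forms in neurons, were called in favour of pEGFR-Lo at 2.40-fold and 3.30-fold, while Nalcn itself did not exceed background. The ankyrins Ank2 and Ank3, which anchor sodium channels and other membrane proteins to the spectrin skeleton, were also called in favour of pEGFR-Lo, at 4.39-fold and 3.57-fold (limma adjusted p = 1.18e-09 and 4.24e-09). Fgf11, an intracellular factor related to fibroblast growth factors that binds sodium channels, was at 4.18 ± 0.17 in pEGFR-Hi and 5.99 ± 0.43 in pEGFR-Lo, or 3.52-fold higher in pEGFR-Lo. Rrad, a small GTPase that restrains L-type channels, was 2.01-fold higher there and lost its call in 8 of the 22 settings, among them without pEGFR-Hi replicate 3 (-0.94) and without pEGFR-Lo replicate 3 (-0.98), 5 or 6. Among 32 measured genes of other cation channel families, 1 (3.12%) was called in favour of pEGFR-Hi, Tmem63a, and 4 (12.5%) in favour of pEGFR-Lo. Their median difference was 0.00. Tmem63a, of a family of channels opened by membrane tension, was at 8.91 ± 0.13 in pEGFR-Hi and 7.21 ± 0.15 in pEGFR-Lo, 3.25-fold higher in pEGFR-Hi (limma adjusted p = 4.35e-10). Its relative Tmem63b was 2.15-fold higher in pEGFR-Lo, as were the proton-gated channel Asic1 (2.44-fold), the calcium channel gamma family member Cacng4 (6.46-fold) and the endolysosomal channel Tpcn1 (2.06-fold; not called without pEGFR-Hi replicate 3, at -0.93, or pEGFR-Lo replicate 6, at -0.99).

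Many of these channels are best known from neurons and glia, so markers of other brain cells were read beside them. All 8 neural progenitor and tumor line markers, such as Nes, Sox2 and Olig2, exceeded background in both groups, and their mean was 8.99 to 9.26 in pEGFR-Hi mice and 9.08 to 9.21 in pEGFR-Lo mice. Of that list, 2 genes were called in opposite directions, Cd44 with pEGFR-Hi above (difference 1.05, limma adjusted p = 9.67e-06) and Fabp7 with pEGFR-Lo above (difference -1.37, limma adjusted p = 2.23e-05). Sox2 passed the adjusted p below 2-fold with pEGFR-Hi above, without overlap of the groups (difference 0.51, limma adjusted p = 4.5e-04). At a limma p below 0.05 before adjustment, 3 of the 8 lay toward pEGFR-Hi and 1 toward pEGFR-Lo. Of 10 mature neuron markers, limma and SAM each called 0 in either direction (0 toward pEGFR-Hi and 3 toward pEGFR-Lo at a p below 0.05 before adjustment). Of all 19938 genes, 1804 were called and another 6727 had such a p. The neuron list averaged 3.51 to 3.65 in pEGFR-Hi mice and 3.64 to 3.87 in pEGFR-Lo mice, with 4 of 10 above background in each group. Slc17a7, Gad2, Nefl, Nefm and Stmn2 exceeded it in neither. Snap25 exceeded it in 0 pEGFR-Hi mice and 6 pEGFR-Lo mice (3.58 ± 0.11 in pEGFR-Hi, 4.40 ± 0.14 in pEGFR-Lo), and passed the adjusted p below 2-fold (difference -0.82, limma adjusted p = 1.08e-06) without overlap of the groups. Gad1 exceeded background in all 12 mice and also passed the adjusted p below 2-fold (difference -0.52, limma adjusted p = 0.00252).

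The astrocyte list averaged 5.19 to 5.56 in pEGFR-Hi mice and 6.62 to 7.12 in pEGFR-Lo mice, with 6 of 8 genes above background in each group. Gfap was called higher in pEGFR-Hi, and Slc1a2, Slc1a3, Gja1 and S100b were called higher in pEGFR-Lo. The oligodendrocyte progenitor list averaged 5.09 to 5.38 in pEGFR-Hi mice and 6.54 to 6.92 in pEGFR-Lo mice, with 6 of 8 genes above background in pEGFR-Hi, 7 of 8 in pEGFR-Lo, and Lhfpl3 and Pcdh15 higher in pEGFR-Lo. Before adjustment, 7 of these 8 markers lay toward pEGFR-Lo at a limma p below 0.05, against 0 the other way. Of all 19938 genes, 1804 were called (3.99% toward pEGFR-Hi and 5.06% toward pEGFR-Lo), and another 6727 had such a p. Pdgfra (difference -0.98, limma adjusted p = 1.35e-05) and Olig1 (difference -0.65, limma adjusted p = 2.03e-04) passed the adjusted p below 2-fold, without group overlap. Gpr17 passed it too, with overlap (difference -0.74, limma adjusted p = 9.44e-04). The oligodendrocyte list averaged 3.88 to 4.02 in pEGFR-Hi mice and 4.30 to 4.48 in pEGFR-Lo mice, with 2 of 7 measured genes above background in pEGFR-Hi and 3 of 7 in pEGFR-Lo, Ermn higher in pEGFR-Lo, and Mog, Mag, Mobp and Ugt8a above background in neither. For microglia and macrophages the averages were 3.79 to 4.0 in pEGFR-Hi mice and 3.95 to 4.38 in pEGFR-Lo mice, with 4 of 8 genes above background in each group. P2ry12 of that list was higher in pEGFR-Lo, and Csf1r, Aif1, Itgam and Ptprc exceeded background in neither. For endothelial and mural cells they were 3.76 to 4.18 in pEGFR-Hi mice and 4.07 to 4.51 in pEGFR-Lo mice, with 3 of 8 genes above background in each group, Rgs5 higher in pEGFR-Lo, and Pecam1, Cdh5, Tek and Pdgfrb above background in neither. Flt1 of that list lay the other way, at 5.04 in pEGFR-Hi and 4.21 in pEGFR-Lo, below 2-fold and without overlap of the groups (difference 0.83, limma adjusted p = 8.84e-05). Of 5 measured T and NK cell markers, limma and SAM each called 0, with 0 at a p below 0.05 before adjustment. The 1 measured red blood cell marker, Alas2, was not called. The part of these lists in the channel results was not tested.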

How the data were processed

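Sorted tumor cell RNA was hybridised to 12 arrays, 1 per mouse, and the sample labels gave the groups and replicate numbers. The deposited values are log2 and were made by the authors with RMA in Affymetrix Expression Console (background correction, quantile normalization across arrays, 1 summary per probe set). A change in total RNA per cell therefore cannot be seen in them. The software version and genome build are not given in the sources used here. Of 35556 probe sets, 21789 named 1 gene symbol and were used, 1621 named several and 12146 none. Each of 19938 genes was represented by its probe set with the highest mean over all arrays. Array medians lay between 4.81 and 4.88, no value was missing, and no pair of arrays was identical. Arrays correlated at 0.991 to 0.994 inside the pEGFR-Hi group, at 0.985 to 0.993 inside the pEGFR-Lo group, and at 0.944 to 0.959 across groups. The number of arrays limits the precision.

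Groups were compared in R 4.3.3 with limma 3.58.1 (lmFit, eBayes), and figures were drawn with matplotlib 3.10.9. The limits (adjusted p under 0.01, 2-fold) follow the study's SAM analysis, and SAM with 100 permutations at a 1% false discovery rate was tried beside limma. The code was tested on simulated arrays. The members, gene lists and tests were chosen with earlier results of these data known. Every called member is named with its values, members above background may be named, and of each related list the called genes are named, at most 6 per direction. Further alternatives were repeated quantile normalization, median centring, removal of dim genes, the replicate number as block, trended and robust eBayes, weighted arrays, a looser limit (adjusted p under 0.05 at any fold), averaged probe sets, removal of each array in turn, and background at the 90th or 99th percentile. Removal of pEGFR-Lo replicates 3 and 6 together was chosen after seeing the data. Promoter windows and gene names came from RefSeq tables of GRCm38.p6.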

Additional observations from a re-analysis of the deposited data

Results flagged for a closer look

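For each of 36 members that were called or above background, the highest and lowest mouse of each group of 6 was compared with the rest of its group. In 6 of 72 gene and group pairs that mouse stood apart, with a gap to its nearest neighbour of more than 0.625 of the group's range, and chance alone flags about 1 in 20 groups. Cacna2d1 was lowest in pEGFR-Hi replicate 3, at 2.55 with the next mouse at 2.99, all below background. Itpr2 was lowest in pEGFR-Hi replicate 1, at 6.53 against 6.82, and highest in pEGFR-Lo replicate 4, at 7.38 against 7.13. In pEGFR-Lo replicate 6, Cacna1h was highest at 7.67 (next 7.05) and Trpv4 at 4.71 (next 4.45). Cacna1b was highest in pEGFR-Lo replicate 3, at 4.62 (next 4.32).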

How the results depend on the processing

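Trpc1 kept its call toward pEGFR-Hi under all 22 alternatives. The members called toward pEGFR-Lo numbered 10 to 12 except under the looser limit, and 11 to 12 when single arrays were left out, beside 1 toward pEGFR-Hi. Under the looser limit (adjusted p under 0.05 at any fold), 4 members were called toward pEGFR-Hi and 23 toward pEGFR-Lo, beside 3871 and 3314 of all genes, 1 and 8 pumps and exchangers, 3 and 14 partners, and 2 and 6 other cation channels. With the replicate block the member counts were 1 and 12, and no call changed. Same-numbered mice did not deviate together (correlations -0.14 to 0.097), and 2 of 12 correlated best with their own number. No pairing by number was seen, though a weak shared effect might not show in these correlations. Without dim genes, Scn3a was not tested. Background at the 90th and 99th percentile put 42 and 25 members above it. Cacnb2 changed sign, to -0.03 without pEGFR-Hi replicate 3 and -0.02 without pEGFR-Lo replicate 6 (single arrays left out, -0.03 to 0.12), and to -0.04 without pEGFR-Lo replicates 3 and 6. Of single-gene values under these alternatives, 764 kept direction and side of the limits, 10 lost the call (Cacnb4 and Cacna1g), 14 gained one under the looser limit and 3 reversed. The cause was not tested.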
